A study of Homo sapiens with 6 samples.

Results

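HSP90 is an abundant cytosolic chaperone of animal cells. It works as a dimer that opens and closes with ATP and keeps kinases, steroid hormone receptors and other client proteins in a shape that can be activated. Co-chaperones bind it in turn: adaptors bring clients from HSP70 or deliver kinases, other partners speed up or slow down the ATPase, and peptidyl-prolyl isomerases join the late complexes with steroid receptors. Many of these genes are induced by the transcription factor HSF1 through heat shock elements in their promoters. The 10 genes described here are the cytosolic HSP90 genes HSP90AA1 and HSP90AB1 and the co-chaperone genes STIP1, AHSA1, FKBP4, FKBP5, PTGES3, CDC37, CHORDC1 and SUGT1. They were chosen by name, with earlier results of these data known, and each matched 1 row among the 20345 protein-coding genes of the deposited table.

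RNA came from HEK 293FT, a human embryonic kidney line that makes the SV40 large T antigen, and was sequenced as 3 libraries in each of 2 groups. The first group is titled HEK 293FTGFP and marked Vec, a mark the labels leave unexplained, and is called GFP cells here; the second is titled HEK 293FTGFP-CTRB1 and is called CTRB1 cells. Both carry GFP in their names, no drug, time point or clone is given, and CTRB1 encodes chymotrypsinogen B1, a digestive protease precursor of the pancreas. The design sets cells given CTRB1 against cells that were not. CTRB1 itself stood at 1474 to 1588 TPM (length-scaled transcript abundance) in CTRB1 cells and at 0 to 0.0619 TPM in GFP cells. Of 6 genes listed as HEK293 lineage markers 5 were in the table, and their summed level was 86.0 to 89.1 TPM in GFP cells and 83.3 to 93.2 TPM in CTRB1 cells. Of 7 measured genes of blood, endothelium, fibroblasts and keratinocytes, only COL1A1 and COL3A1 reached 1 TPM in any library, and KRT14 and HBB were at 0 in all 6. Total counts were 52571457 to 159616285 in GFP libraries and 27514767 to 32522018 in CTRB1 libraries, so depth differs between the groups and cannot be told apart from them; for the 10 genes the counts ran from 2416 to 344745, far above the floor of 3 counts. Separate cultures are not stated, so the p-values below measure the spread between these libraries, which may be technical.

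Because HSF1 binds alternating units of GAA and its complement TTC, the starts of the 10 genes were searched for them, and the stretches that hold matches are shown first. RefSeq (build GRCh38.p14) gave windows from 250 bases before to 50 bases after a start for 9 of the 10 genes, 15 windows in all; FKBP4 was not matched. The paired motifs GAANNTTC and TTCNNGAA are each their own reverse complement, so both strands were read at once, and neighbouring pairs can overlap. Runs of 3 alternating units are written GAANNTTCNNGAA or TTCNNGAANNTTC, which are reverse complements of each other. A pair was present in 5 genes and 3 alternating units in HSP90AA1, HSP90AB1 and CHORDC1, against 16.2% and 0.608% of all 27305 genes of the table and 13.5% and 0.49% of its 35116 windows. Capitals below mark every base within a matched pair.
HSP90AA1 (second start, chr14:102087105-102087134, minus strand, 90 to 61 bases before the start): tcTTCCGGAAGGTTCgggaggcTTCTGGAA
HSP90AB1 (the third start, chr6:44247693-44247865, plus strand, 250 to 78 bases before the start): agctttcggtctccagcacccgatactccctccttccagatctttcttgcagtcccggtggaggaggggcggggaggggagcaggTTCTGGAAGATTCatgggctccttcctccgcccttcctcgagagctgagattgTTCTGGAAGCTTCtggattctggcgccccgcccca
CHORDC1 (chr11:90223084-90223113, minus strand, 64 to 35 bases before the start): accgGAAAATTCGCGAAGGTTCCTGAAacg
STIP1 (second start, chr11:64186173-64186202, plus strand, 3 to 32 bases after the start): cttctagtaggTTCCAGAAggcggcgcgtg
SUGT1 (chr13:52652830-52652859, plus strand, around the start): gtgtttctccaGAAGTTTCccccttgggcg
The CHORDC1 stretch held 4 overlapping pairs, and its window held 6 pairs in all. HSP90AB1 had its 4 pairs in 2 clusters upstream of the start that lies furthest downstream, 1749 bases after the first, and none at its other starts. In HSP90AA1 the 3 pairs lay 88 to 61 bases before the downstream start, a stretch that GENCODE v29 places in an exon of a longer transcript. The printed CHORDC1 and STIP1 stretches lie wholly in annotated exons of their genes, as do all 250 bases before the CHORDC1 start. Of the printed SUGT1 stretch, 21 of 30 bases do. Where the matches fall in an annotated exon, no more than 30 bases are printed. AHSA1, FKBP5, PTGES3 and CDC37 had no pair in their windows, which says only that these letters are not there. A match is a description of sequence and not a bound site.

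**Figure D1:**
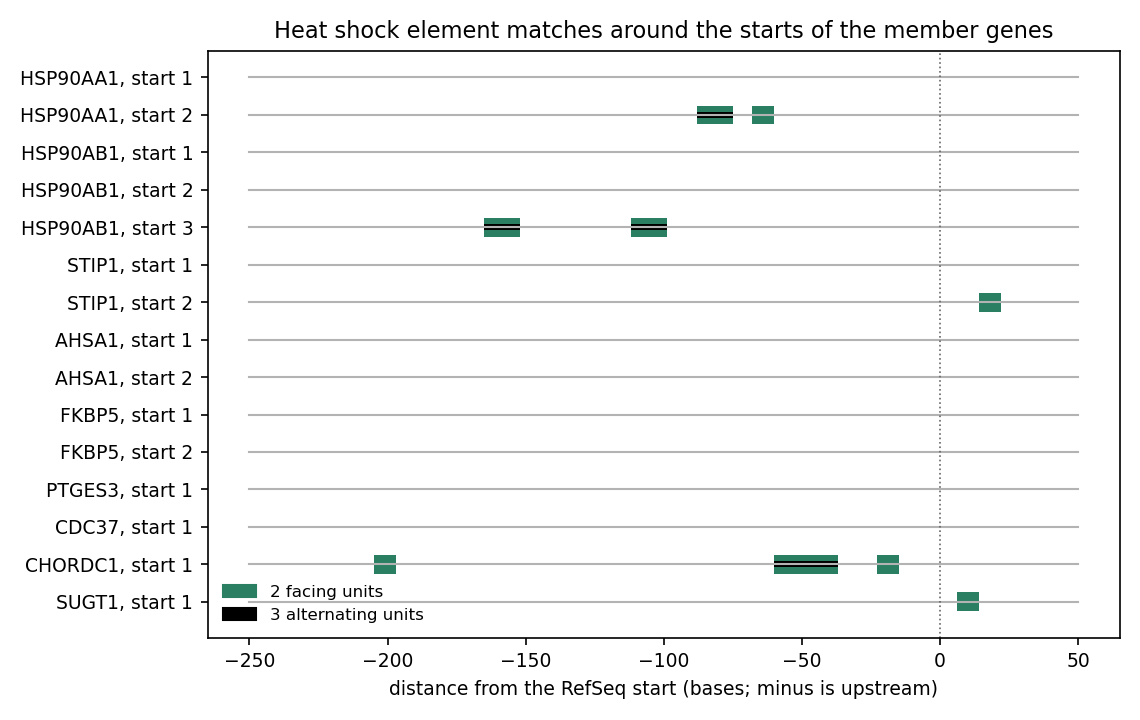
Positions of heat shock element matches in 15 RefSeq start windows of 9 genes, each line running from 250 bases before to 50 bases after a start; green boxes are paired units and black bars 3 alternating units. The matches cluster upstream of 1 start each of HSP90AA1, HSP90AB1 and CHORDC1, while STIP1 and SUGT1 have 1 pair just after a start.

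Nearly the whole HSP90 group was lower in CTRB1 cells, by amounts that differed between genes. Of the 10 genes, all of which passed the expression filter, 9 fell in edgeR's quasi-likelihood test (Benjamini-Hochberg adjusted p under 0.05 over 11961 genes), none rose, and FKBP5 was not called. Over all genes tested, 18.9% were called lower and 18.6% higher, 37.4% in all. As the 10 genes were chosen with earlier results of these data known, the shares over all genes stand beside them as a description only. DESeq2 called 9 of the 10 genes lower (all genes: 37.5% called) and limma on log2(FPKM + 1) called 8 lower (all genes: 26.7% called, 16.2% lower). The median log2 change of the 10 genes was -0.21, against 0.0033 over all genes tested, and 8.52% of all genes tested had a log2 change below that member median. All 3 CTRB1 libraries lay below all 3 GFP libraries in CPM (counts scaled to library size with TMM factors) for 9 of the 10 genes, against 25.0% of genes tested. RNA was taken from whole cultures, so fewer cells with a transcript and less of it per cell cannot be told apart.

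Measured per transcript length, the group spanned a wide range, and the order of the group means was the same in GFP and CTRB1 cells. In GFP cells HSP90AB1, the constitutive HSP90 gene, stood highest at 1608 ± 22.3 TPM (SD, n = 3) and ranked 68 of all genes in the table, and HSP90AA1, the stress-inducible gene, followed at 1204 ± 13.7 TPM with rank 98. PTGES3 was at 655 ± 21.1 TPM, STIP1 at 444 ± 5.77, CDC37 at 412 ± 4.86, FKBP4 at 321 ± 2.86 and AHSA1 at 317 ± 5.73 (TPM, SD, n = 3). CHORDC1 stood at 104 ± 2.41, FKBP5 at 43.4 ± 1.03 and SUGT1 at 27.4 ± 0.577 TPM (SD, n = 3), rank 5507. Among neighbours in this order, only FKBP4 and AHSA1 overlapped in GFP cells. In CTRB1 cells STIP1 and CDC37 overlapped too, at 381 ± 4.16 and 380 ± 7.28 TPM (SD, n = 3), where STIP1 had been 1.08 times CDC37 in GFP cells and was 1.00 times CDC37 in CTRB1 cells.

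**Figure D2:**
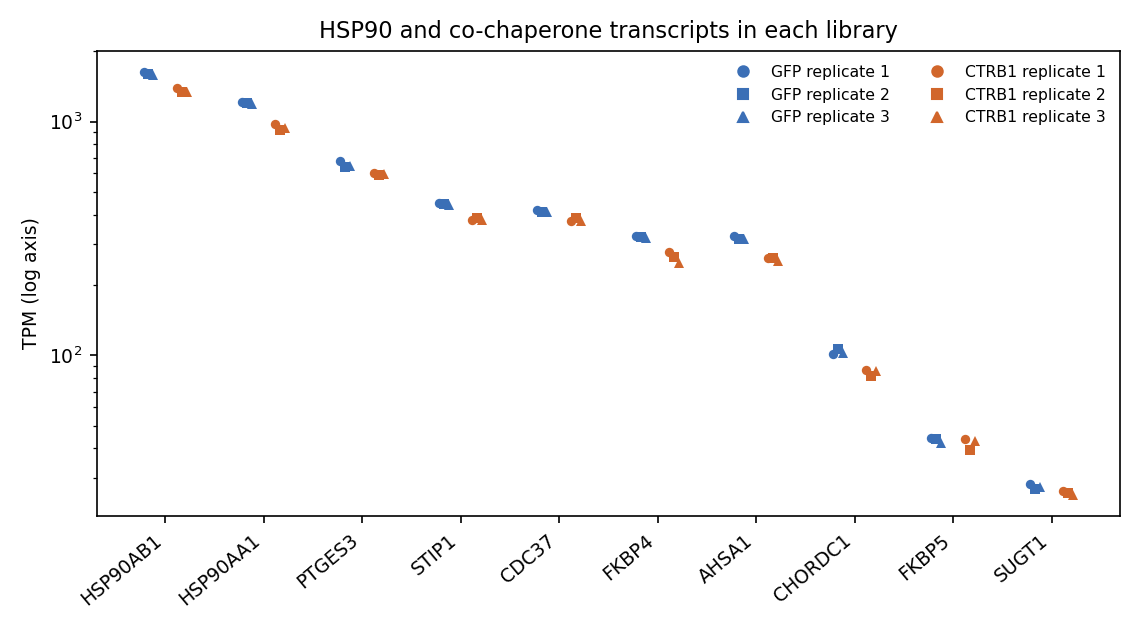
TPM of the 10 genes in each of the 6 libraries, on a log axis, ordered by the mean of the GFP libraries; colour gives the group and marker shape the replicate. HSP90AB1 (1608 TPM in GFP cells) and SUGT1 (27.4 TPM) mark the ends of the range, and the CTRB1 points lie below the GFP points for each gene except FKBP5.

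HSP90AA1 (ENSG00000080824; chromosome 14, positions 102547075 to 102606036 in the table, whose build is not named) had 2169, 2133 and 2121 CPM in GFP replicates 1 to 3 and 1728, 1670 and 1686 CPM in CTRB1 replicates 1 to 3. The groups were 393 CPM apart at their nearest libraries, while the SD was 25.1 CPM within GFP cells and 29.6 CPM within CTRB1 cells. The gene fell by 20.8% (log2 change -0.34 ± 0.0172, SE; edgeR adjusted p = 3.01e-07), and 2.9% of the genes tested had a larger fall. GFP replicate 3, with about 3 times the counts of GFP replicate 1, had the lowest GFP value and was still above every CTRB1 library.

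HSP90AB1 (ENSG00000096384; chromosome 6, positions 44214824 to 44221620) had 2227, 2174 and 2172 CPM in GFP cells and 1892, 1864 and 1850 CPM in CTRB1 cells. It fell by 14.7% (log2 change -0.23 ± 0.0161, SE; edgeR adjusted p = 3.02e-06). The groups did not overlap here either, and the gap of 280.5 CPM between them was wider than the SDs of 30.9 and 21.1 CPM.

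The balance between both genes also differed, which restates their unequal falls. The same share for other pairs of genes was not computed. HSP90AA1 made up 42.7, 42.9 and 42.8% of their summed TPM in GFP replicates 1 to 3 and 41.3, 40.8 and 41.1% in CTRB1 replicates 1 to 3. The share was 42.8 ± 0.0981% in GFP cells and 41.0 ± 0.264% in CTRB1 cells (SD, n = 3 each), a difference of -1.78 percentage points that was larger than the spread between replicates. The exact two-sided permutation p was 0.1, which is the lowest this design can reach. Summed over both genes, cytosolic HSP90 went from 2813 ± 35.7 to 2304 ± 57.6 TPM (SD, n = 3 each). Windows of 100 bases that also occur unchanged in another gene's transcript, mostly those of pseudogenes, made up 2.14% of HSP90AA1 and 1.59% of HSP90AB1, and none was shared between them.

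Among the co-chaperones that act on the chaperone cycle itself, the adaptor and the ATPase activator fell. STIP1, also called HOP, the adaptor that holds HSP70 and HSP90 together while a client is passed on (ENSG00000168439; chromosome 11, positions 63952744 to 63972015), had 513, 501 and 502 CPM in GFP cells and 432, 448 and 441 CPM in CTRB1 cells. It fell by 12.9% (log2 change -0.20 ± 0.0226, SE; edgeR adjusted p = 8.19e-05). The groups were 53.5 CPM apart, more than 6 times either SD.

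AHSA1, or AHA1, which stimulates the ATPase (ENSG00000100591; chromosome 14, positions 77924213 to 77935817), had 229, 223 and 223 CPM in GFP cells and 185, 190 and 186 CPM in CTRB1 cells, with means of 225 ± 3.32 and 187 ± 3.07 CPM (SD, n = 3 each). It fell on the log2 scale by 0.27 (log2 change -0.27 ± 0.0246, SE; edgeR adjusted p = 2e-05). Its GFP and CTRB1 libraries were 32.7 CPM apart. AHSA1 overlaps VIPAS39 by 83 bases in the table; VIPAS39 had 7.51 to 11.8% of the count of AHSA1 and a log2 change of 0.30, and the sources used here do not say if counting was strand-specific.

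PTGES3, the p23 protein that binds the closed, ATP-bound dimer (ENSG00000110958; chromosome 12, positions 57057127 to 57082159), changed less. It had 672, 631 and 643 CPM in GFP cells and 593, 583 and 595 CPM in CTRB1 cells, and fell by 9.01% (log2 change -0.14 ± 0.0255, SE; edgeR adjusted p = 0.00193). The GFP libraries were more spread (SD 21.3 CPM) than the CTRB1 libraries (SD 6.48 CPM), with GFP replicate 1 the highest, and the groups were still 35.7 CPM apart.

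CDC37, which delivers kinases to HSP90 (ENSG00000105401; chromosome 19, positions 10501810 to 10530797), showed the smallest fall that passed. Its 327, 317 and 322 CPM in GFP cells lay only 8.97 CPM above the 292, 308 and 301 CPM of CTRB1 cells. It fell by 6.79% (log2 change -0.10 ± 0.0262, SE; edgeR adjusted p = 0.0112), and the adjusted p was 0.0504 without GFP replicate 1. CDC37 overlaps PDE4A, which had 5.23 to 6.53% of its count and a log2 change of -0.09 (edgeR adjusted p = 0.383).

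The immunophilins FKBP4 and FKBP5, peptidyl-prolyl isomerases that compete for the same place in steroid receptor complexes, differed from each other. FKBP4, or FKBP52, known to favour receptor activity (ENSG00000004478; chromosome 12, positions 2904119 to 2914576), had 383, 374 and 376 CPM in GFP cells and 325, 318 and 299 CPM in CTRB1 cells. It fell by 16.8% (log2 change -0.27 ± 0.0308, SE; edgeR adjusted p = 9.55e-05), with CTRB1 replicate 3 the lowest.

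FKBP5, or FKBP51, known to restrain the glucocorticoid receptor and itself induced by glucocorticoids (ENSG00000096060; chromosome 6, positions 35541362 to 35696360), had 88.6, 88.3 and 85.7 CPM in GFP cells and 89.0, 80.9 and 88.0 CPM in CTRB1 cells. The groups overlapped: CTRB1 replicate 1 was the highest of all 6 and CTRB1 replicate 2 the lowest. Its log2 change of -0.02 ± 0.0367 (SE; edgeR adjusted p = 0.622) did not pass and became 0.02 without CTRB1 replicate 2.

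FKBP5 therefore took a larger share of the pair, as any unchanged gene would beside the lower FKBP4. The share of other genes beside FKBP4 was not computed, so this is no separate result about FKBP5. It made up 12.0, 12.1 and 11.7% of the TPM of FKBP4 and FKBP5 in GFP cells and 13.7, 13.0 and 14.8% in CTRB1 cells. The share was 11.9 ± 0.195% in GFP cells and 13.8 ± 0.873% in CTRB1 cells (SD, n = 3 each), with no overlap (exact two-sided permutation test, p = 0.1, the smallest possible). From read counts, which are not scaled by length, the same share differed by 2.70 percentage points in place of 1.91.

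The co-chaperones with a CS domain, a fold shared with p23, both fell. CHORDC1, or morgana, which binds HSP90 through CHORD and CS domains (ENSG00000110172; chromosome 11, positions 89934328 to 89956532), had 159, 163 and 161 CPM in GFP cells and 129, 128 and 138 CPM in CTRB1 cells. It fell by 18.3% (log2 change -0.29 ± 0.0298, SE; edgeR adjusted p = 4.16e-05), next after HSP90AA1 in the group. The groups were 20.9 CPM apart, and the spread was wider in CTRB1 cells (SD 5.48 CPM) than in GFP cells (SD 2.21 CPM).

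SUGT1, the homologue of yeast SGT1, which works in kinetochore assembly (ENSG00000165416; chromosome 13, positions 53226844 to 53275044), had 103, 102 and 105 CPM in GFP cells and 94.2, 95.9 and 94.4 CPM in CTRB1 cells. It fell by 8.14% (log2 change -0.12 ± 0.0261, SE; edgeR adjusted p = 0.00403), with 5.78 CPM between the groups. With limma on log2(FPKM + 1) its log2 change was -0.08 and did not pass (adjusted p = 0.157).

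**Figure D3:**
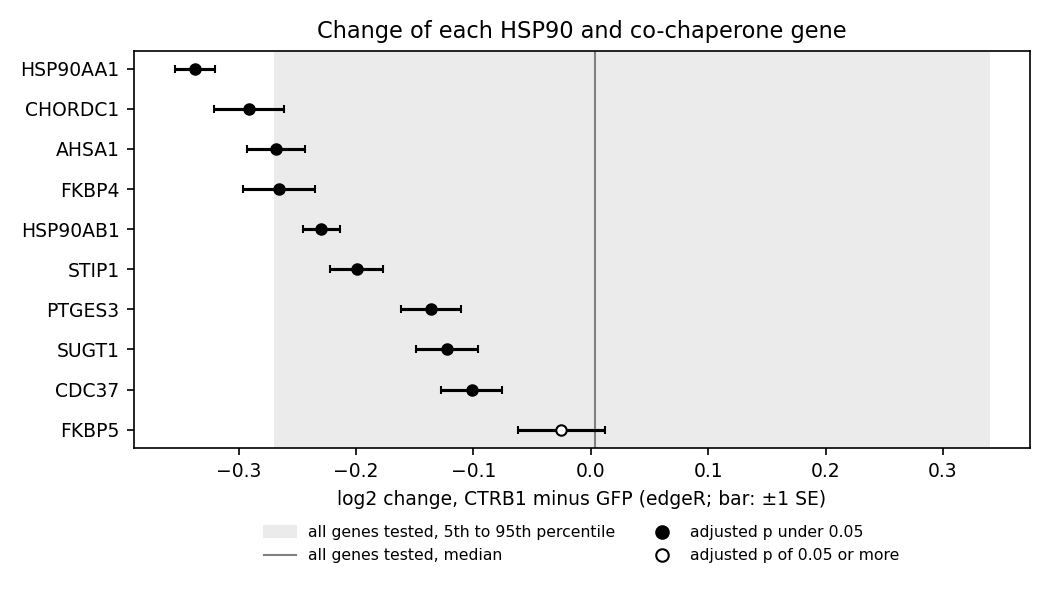
Log2 change of each gene between CTRB1 and GFP cells from edgeR, with bars of 1 SE; the grey band spans the 5th to 95th percentile of all genes tested and the line their median of 0.0033. Filled points passed an adjusted p of 0.05; the points run from -0.34 for HSP90AA1 to -0.02 for FKBP5, the single open point.

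The sizes of the falls can be set beside the promoter stretches shown above. The genes with 3 alternating units, HSP90AA1, CHORDC1 and HSP90AB1, had log2 changes of -0.34, -0.29 and -0.23. STIP1 and SUGT1, with 1 pair each, had -0.20 and -0.12. AHSA1, PTGES3, CDC37 and FKBP5, with no pair in their windows, had -0.27, -0.14, -0.10 and -0.02. FKBP4, with a log2 change of -0.27, had no window and cannot be placed. The log2 change of AHSA1, without a match, thus lies between those of CHORDC1 and HSP90AB1, and no test was made of this order.

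Since HSP90 and its partners work together, each co-chaperone was also set against the sum of HSP90AA1 and HSP90AB1 in the same library, as TPM per 100 TPM of cytosolic HSP90. This ratio was added after the changes had been seen. FKBP4, AHSA1 and CHORDC1 had ratios that overlapped between the groups, with 11.4 ± 0.0551 and 11.4 ± 0.404 for FKBP4, 11.3 ± 0.0994 and 11.2 ± 0.263 for AHSA1, and 3.68 ± 0.106 and 3.68 ± 0.0767 for CHORDC1 (GFP and CTRB1 cells, SD, n = 3 each). The other 5 had higher ratios in all 3 CTRB1 libraries than in any GFP library, as did 76.6% of the 11959 other genes tested, since the HSP90 sum itself was lower. Such a higher ratio is therefore no result about these 5 genes, and their values are given as a description; a lower ratio without overlap was found for 1.41% of genes and for none of the 8. PTGES3 had 23.8, 22.7 and 23.3 per 100 HSP90 transcripts in GFP cells and 25.4, 26.2 and 26.1 in CTRB1 cells.

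CDC37, the kinase adaptor, had 14.7, 14.6 and 14.7 per 100 in GFP cells and 15.9, 17.2 and 16.5 in CTRB1 cells. FKBP5 went from 1.54 ± 0.0217 to 1.83 ± 0.0827, SUGT1 from 0.974 ± 0.0155 to 1.12 ± 0.0209 and STIP1 from 15.8 ± 0.0367 to 16.5 ± 0.555 per 100 (SD, n = 3 each). The difference was thus largest in proportion for FKBP5, whose ratio in CTRB1 cells was 1.19 times that in GFP cells, and smallest of the 5 for STIP1, at 1.05 times. For each of the 5 the exact two-sided permutation p was 0.1, the smallest possible, and 0.16 adjusted over the 8 ratios, so none could pass. These are ratios of transcripts, and no protein was measured.

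**Figure D4:**
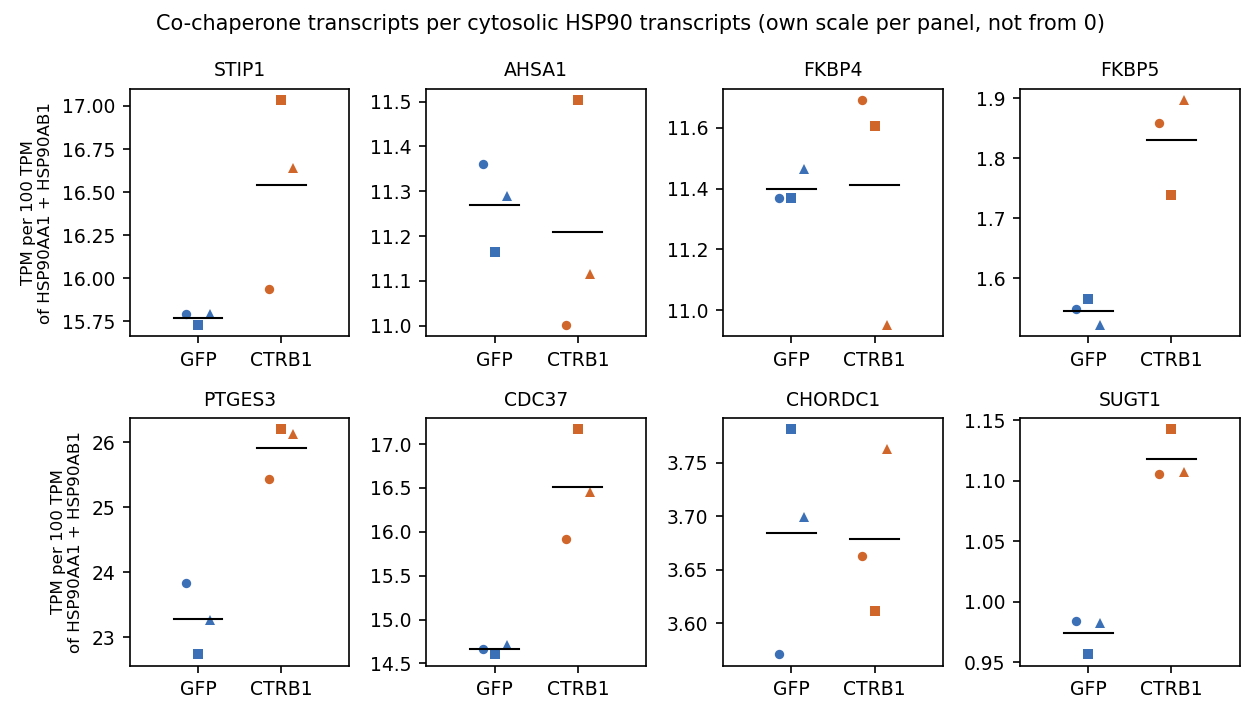
TPM of each co-chaperone per 100 TPM of HSP90AA1 plus HSP90AB1, by library; lines are group means, and each panel has its own scale that does not start at 0. The groups separate for STIP1, FKBP5, PTGES3, CDC37 and SUGT1, and overlap for AHSA1, FKBP4 and CHORDC1.

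Beyond the 10 genes, the rest of the HSP90 system was divided. Of 39 other genes in 6 lists 35 were tested, of which 13 were lower, 4 higher and 18 not called, with a median log2 change of -0.03; the shares over all genes tested were 18.9% lower and 18.6% higher. Without GFP replicate 1, 11 of these genes were called in place of 17. Neither HSP90 gene of another compartment was called. HSP90B1, which encodes GRP94 of the endoplasmic reticulum, had 1045 ± 11.5 and 1032 ± 16.6 CPM (SD, n = 3 each; log2 change -0.02; edgeR adjusted p = 0.477), and TRAP1, the mitochondrial HSP90, had 295 ± 3.52 and 306 ± 4.09 CPM (SD, n = 3 each; log2 change 0.05; edgeR adjusted p = 0.0956). TRAP1 passed as higher when only genes with a mean FPKM of at least 5 were tested (adjusted p = 0.0443).

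Among 12 further co-chaperones with TPR domains, the repeats that grip the tail of HSP90, 6 fell and 1 rose (all genes tested: 18.9% lower, 18.6% higher). SGTA, which also hands tail-anchored proteins to the membrane insertion machinery, went from 169 ± 1.13 to 138 ± 1.71 CPM (SD, n = 3 each; log2 change -0.29; edgeR adjusted p = 5.32e-06). TOMM34, PPID (cyclophilin 40), TTC4 and DNAJC7 had log2 changes of -0.17, -0.18, -0.15 and -0.13. The call of DNAJC7 was lost in both limma fits (adjusted p = 0.0725 and 0.0733) and without GFP replicate 1, CTRB1 replicate 2 or CTRB1 replicate 3 (edgeR adjusted p = 0.0657, 0.0568 and 0.0669). TOMM70, the mitochondrial import receptor that docks HSP90, was the member that rose, by 0.08 on the log2 scale (edgeR adjusted p = 0.0292). The call of TOMM70 was lost in both limma fits, without the expression filter and when any single GFP library was left out. Of 7 genes with a CS domain or related to CDC37, NUDC fell from 257 ± 5.12 to 210 ± 3.47 CPM (SD, n = 3 each; log2 change -0.29; edgeR adjusted p = 1.43e-05) and CACYBP had a log2 change of -0.17. The call of CACYBP was lost in both limma fits (adjusted p = 0.202 and 0.204). PTGES3L, a p23-like gene at only 2.30 and 3.21 CPM, had a log2 change of 0.47 (edgeR adjusted p = 0.0308). Its adjusted p was 0.077 without GFP replicate 1, 0.108 without GFP replicate 2, 0.0805 without CTRB1 replicate 1 and 0.0598 without CTRB1 replicate 3.

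In the R2TP and TTT complexes, which use HSP90 to assemble large kinases and other complexes, 3 of 7 genes fell and none rose. The total was near the 37.4% of all genes tested that were called (18.9% lower, 18.6% higher). In the TTT complex TELO2 and TTI1 both had a log2 change of -0.16 (edgeR adjusted p = 0.000847 and 0.0102), and RUVBL1, an ATPase of R2TP, had -0.10 (edgeR adjusted p = 0.012). Of 3 genes whose proteins slow the HSP90 ATPase, 1 was lower, 1 higher and 1 not called (all genes tested: 18.9% lower, 18.6% higher). TSC1 had a log2 change of 0.12 and FNIP2 one of -0.16 (edgeR adjusted p = 0.0104 and 0.0277). FNIP1, the relative of FNIP2, was not called (log2 change 0.13, edgeR adjusted p = 0.108). TSC1 lost its call in both limma fits (adjusted p = 0.528 and 0.525), where its log2 change was 0.07 and 0.08. FNIP2 lost its call without GFP replicate 1, GFP replicate 3 or CTRB1 replicate 3 (edgeR adjusted p = 0.109, 0.107 and 0.0799). The transcript of HSF1 was not called, at 75.7 ± 1.79 and 80.3 ± 2.40 CPM (SD, n = 3 each; log2 change 0.09; edgeR adjusted p = 0.0574), and neither was that of HSF2 (log2 change 0.01; edgeR adjusted p = 0.81). For HSF1 the lowest CTRB1 library (77.7 CPM) still lay just above the highest GFP library (77.4 CPM). CTRB1 libraries lay above GFP libraries without overlap for 25.0% of genes tested. HSF4, a family member best known from the lens, rose from 10.1 ± 0.359 to 14.6 ± 0.236 CPM (SD, n = 3 each; log2 change 0.53; edgeR adjusted p = 0.000326), and HSBP1, whose protein binds HSF1, had a log2 change of -0.11 (edgeR adjusted p = 0.0128), which lost its call without GFP replicate 1 (edgeR adjusted p = 0.0557).

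Of 23 client kinase genes 7 were higher, 1 lower and 15 not called, with a median log2 change of 0.02. The share called was near the 37.4% over all genes tested, of which 18.6% were higher and 18.9% lower. CHEK1, the checkpoint kinase, rose by 0.24 on the log2 scale, STK11 (LKB1) by 0.16, ERBB2 by 0.14 and PLK1 by 0.13, while the receptor gene FGFR4 had -0.28 (edgeR adjusted p = 8.22e-05, 0.000398, 0.00153, 0.00381 and 0.000286). PLK1 lost its call in both limma fits (log2 change 0.08, adjusted p = 0.131 and 0.132).

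Of the client transcription factor genes reported here 4 were tested, a list from which a gene was taken out after its values were seen, so that its tally is not set against all genes. AHR and HIF1A fell, and NR3C1 and NR3C2, the glucocorticoid and mineralocorticoid receptor genes, were not called (log2 change 0.14 and -0.04; edgeR adjusted p = 0.0673 and 0.758). AHR, the dioxin receptor gene, had a log2 change of -0.34 and HIF1A one of -0.18 (edgeR adjusted p = 0.00798 and 0.000869), and the call of AHR was lost with limma on log2(FPKM + 0.1) (adjusted p = 0.0505).

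The 9 tested genes that respond to glucocorticoids, a list set beside FKBP5, comprised 3 that were higher, 3 lower and 3 not called, against 18.6% higher and 18.9% lower over all genes tested. TSC22D3 (GILZ) rose from 420 ± 7.83 to 516 ± 8.51 CPM (SD, n = 3 each; log2 change 0.30; edgeR adjusted p = 6.71e-06) and KLF9 by 0.14 on the log2 scale, while DUSP1, ERRFI1 and GLUL had log2 changes of -0.39, -0.23 and -0.10. KLF9 lost its call in both limma fits (adjusted p = 0.116 and 0.114) and without GFP replicate 2, GFP replicate 3 or CTRB1 replicate 1 (edgeR adjusted p = 0.0678, 0.109 and 0.058). ERRFI1 lost its call without GFP replicate 1 and GLUL without GFP replicate 3 (edgeR adjusted p = 0.0674 and 0.0561).

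**Figure D5:**
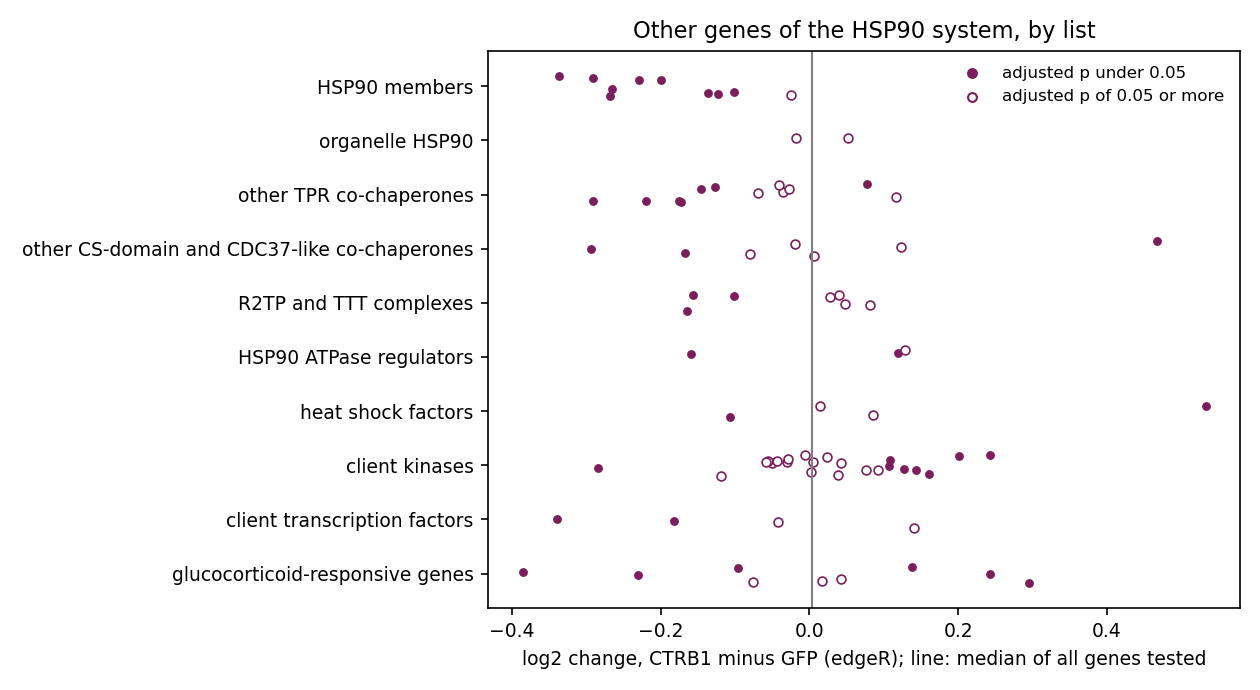
Log2 change between CTRB1 and GFP cells for the 10 genes (top) and for the tested genes of 9 further lists, 1 point a gene; filled points passed an adjusted p of 0.05 and the line is the median of all genes tested. The top list lies left of the line, and the other lists spread to both sides.

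As a description of likeness over the 6 libraries, genes whose log2 CPM followed HSP90AA1 closely included SLC39A1 and HSPA8, the constitutive HSP70 gene, each with a Pearson r of 0.999, and those closest to HSP90AB1 were BMS1, NUDC and PKM, with r of 1.00, 1.00 and 0.999. Such values are common here, since 924 genes (7.73%) passed r = 0.95 with HSP90AA1 and 918 (7.68%) with HSP90AB1, and all points share their libraries and the contrast. FKBP5 had 20 such genes (0.167%), led by LAMB1, a laminin chain gene, TEAD4, a transcription factor gene, and ARFGEF3, with r of 0.998, 0.99 and 0.989. An r leaves out the size of a change. The log2 change was -0.25 for SLC39A1 and -0.79 for HSPA8, beside -0.34 for HSP90AA1. BMS1, NUDC and PKM had -0.18, -0.29 and -0.28, beside -0.23 for HSP90AB1.

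The authors' deposited table gives values for the same contrast. Its log2 changes were -0.34 for HSP90AA1, -0.23 for HSP90AB1 and -0.03 for FKBP5, with the authors' adjusted p of 1.45e-81, 8.83e-42 and 0.685. Among the genes called lower here, the highest of the authors' adjusted p was 0.00234, for SUGT1. In the authors' deposited table none of the 10 genes carries the mark up or down, which 336 and 257 genes carry (3.3% of the 17967 genes with an entry), and the smallest absolute log2 change among marked genes is 0.50, more than that of any of the 10.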

How the data were processed

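The 10 genes and the 9 further lists were chosen with earlier results of these data known. The file headers name the deposited columns as read counts, FPKM and TPM. The read counts are whole and were taken as unnormalized, and FPKM and TPM as the authors' normalized levels per gene. The deposited group mean counts, entered as estimated counts because they are not whole, were not used for tests. The authors' own comparison, as deposited, holds log2 fold changes with p-values before and after adjustment, with no tool named. HISAT2 2.2.1, HTSeq 0.6.1 and cutadapt 1.9.1 appear without roles in the submitters' processing notes, as does a mouse build (GRCm38.p5), although all gene identifiers are human, so coordinates are those of the table.

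Genes with FPKM of at least 1 in at least 3 of 6 libraries (11961 of 20345) entered 1 edgeR 4.0.16 model (R 4.3.3) without covariates, with TMM factors of 0.9964 to 1.0036, a quasi-likelihood F test and Benjamini-Hochberg adjustment at 0.05. The SE is the log2 change divided by the square root of F. The fit was first tested on simulated counts. Libraries of a group differed by more than sampling noise (chi-square per degree of freedom 5.72 to 8.17). Shares and ratios used TPM and exact permutation tests in SciPy 1.17.1. Shared windows came from GENCODE v29 transcripts. All 10 genes are named; from each list, the 5 called genes lowest in adjusted p were taken, or, with none called, the gene lowest in p. For HSP90AA1, HSP90AB1 and FKBP5 the 3 tested genes with the highest Pearson r are named too; 1 of these, and 1 gene of the client lists, which was taken out of its list after its values were seen, are not reported here. HSP90B1, TOMM70, FNIP1, HSF1, HSF2, NR3C1 and NR3C2 were named after their values were seen. Alternatives were DESeq2 1.42.0, its size factors, other filters, limma 3.58.1 on FPKM, FPKM or counts for shares, a replicate block and leaving out each library. Floors and counts cover counting error only.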

Additional observations from a re-analysis of the deposited data

How the results depend on the processing

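The 9 falls of the HSP90 group kept their direction under all 13 alternatives and their calls in all but 3 instances: SUGT1 in both limma fits (log2 change -0.08 and adjusted p = 0.157 with a pseudocount of 1, adjusted p = 0.155 with 0.1) and CDC37 without GFP replicate 1 (adjusted p = 0.0504). HSP90AA1 ranged from -0.35 to -0.33 on the log2 scale. FKBP5 was never called, ranged from -0.0507 without CTRB1 replicate 1 and reversed to 0.0189 without CTRB1 replicate 2. Of the other HSP90 system genes, 11 to 18 were called when a library was left out (17 with all; 2 to 4 of them higher), and 2 were higher in each limma fit against 4. The share of FKBP5 differed by 2.70 percentage points from read counts. With a library left out, the difference in TPM per 100 HSP90 TPM ranged from -0.214 to 0.0368 for AHSA1 (reversed without CTRB1 replicate 1), from -0.124 to 0.246 for FKBP4 and from -0.0614 to 0.0436 for CHORDC1. For FKBP4 it reversed without GFP replicates 1 and 2 and CTRB1 replicates 1 and 2, and for CHORDC1 without GFP replicates 2 and 3 and CTRB1 replicates 1 and 2. Of 28 genes named by rule from the further lists, 11 lost a call under at least 1 alternative and none reversed. TOMM70, which was named after its values were seen, lost its call under several alternatives too. For these changes the cause was not tested.

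No pairing by replicate number was seen. Same-numbered libraries had correlations of their deviations of -0.077, -0.078 and -0.134, and each GFP library correlated best with a CTRB1 library of another number. With 3 libraries a group, such correlations cannot decide if same-numbered libraries shared a culture, which the labels do not state. With the replicate block 4320 genes were called in place of 4479, and the HSP90 group still had 9 calls. The lowest count among the 10 genes was 2416, and the effect of depth on the calls was not tested.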
